A study of Mus musculus with 6 samples.

Results

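The 9 transcription factor genes described here set or hold the identity of macrophages: Spi1, Cebpa, Cebpb, Cebpd, Maf, Mitf, Runx1, Bhlhe40 and Bhlhe41. They were chosen by gene symbol, and each stood on 1 of the 25711 entries of the deposited table. Total RNA was sequenced from wild-type macrophages grown from mouse bone marrow, in 3 control libraries (24 h, no CCL7) and 3 libraries from cells given the chemokine CCL7 at 500 ng/ml for 24 h. CCL7 attracts monocytes, and the series asks how it relates to macrophage polarization in rheumatoid arthritis. The extraction notes also name chondrocytes, but every library is labelled as macrophages. The labels do not state whether libraries of 1 group are from different mice or dishes. The p-values therefore speak only to the spread among these 6 libraries, which could be technical.

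PU.1, the ETS-family protein encoded by Spi1, is required for the macrophage lineage and binds enhancers together with the C/EBP proteins, basic leucine zipper factors that bind DNA as dimers. C/EBP alpha is known for its part in making granulocyte and monocyte progenitors, and C/EBP beta and C/EBP delta for driving inflammatory and acute-phase genes. RUNX1 acts upstream of Spi1 in blood formation, MAF (c-Maf) promotes interleukin-10 and restrains self-renewal of macrophages, MITF drives osteoclast genes, and BHLHE40 and BHLHE41 are repressors that bind E-box sequences and also act in the circadian clock.

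The C/EBP genes gave the largest changes of the 9. With CCL7, Cebpb rose 3.94-fold, Cebpd rose 4.24-fold and Cebpa fell 3.49-fold, so that Cebpb took the place of Cebpa as the most abundant C/EBP transcript. Bhlhe40 and Maf fell by smaller amounts and Mitf and Spi1 rose by smaller amounts, the last only relative to the scaling used. Runx1 and Bhlhe41 did not pass the test. All 9 genes passed the filter on low values, a mean of at least 1 FPKM over the 6 libraries. Of the 9, 4 rose and 3 fell (edgeR adjusted p below 0.05), which is 77.8%, beside 69.1% of the 11143 genes tested (33.9% higher and 35.2% lower). With libraries scaled by their deposited totals, 3 rose and 5 fell, beside 74.1% of all genes tested (20.7% higher and 53.4% lower). By either scaling the share of the 9 that changed was near that of all genes. A change of at least 2-fold was seen at 3 of the 9, beside 16.4% of all genes tested. The groups did not overlap at 7 of the 9, beside 73.7% of all genes tested.

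Promoter sequences of 5 of the 9 genes were read from RefSeq (build GRCm38.p6), as the 250 bases before an annotated start, 5′ to 3′ on the strand of the gene. Capitals mark matches, on either strand, to letters bound by these factors or by inflammatory factors. These letters were first the E-box bound by BHLHE40, BHLHE41 and MITF, searched as CACGTG. PU.1 was searched as GAGGAA, the C/EBP proteins as TTGCNNAA and RUNX factors as TGTGGT. The MAF half-site was searched as TGCTGAC and the TATA box, which was added after the sequences were seen, as TATAAA. The AP-1 and NF-kB sites were searched as well, and none of these windows held one. The first pair is shown because, of the 5 genes matched, these changed most and in opposite directions. The others are shown because they hold a match to the letters of a lineage factor. For Mitf and Runx1 only the window of the most upstream start is shown.
Cebpa, chr7:35119043-35119292, plus strand: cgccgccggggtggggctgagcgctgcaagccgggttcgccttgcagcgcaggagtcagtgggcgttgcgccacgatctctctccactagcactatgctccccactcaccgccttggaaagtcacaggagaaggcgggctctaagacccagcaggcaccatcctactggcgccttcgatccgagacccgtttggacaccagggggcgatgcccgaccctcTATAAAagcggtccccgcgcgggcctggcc
Cebpb, chr2:167688665-167688914, plus strand: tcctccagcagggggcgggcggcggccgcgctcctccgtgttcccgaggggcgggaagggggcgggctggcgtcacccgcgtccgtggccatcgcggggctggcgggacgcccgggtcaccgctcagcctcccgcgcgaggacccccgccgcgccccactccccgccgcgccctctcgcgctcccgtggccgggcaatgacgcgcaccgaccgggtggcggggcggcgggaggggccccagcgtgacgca
Mitf, most upstream start, chr6:97806808-97807057, plus strand: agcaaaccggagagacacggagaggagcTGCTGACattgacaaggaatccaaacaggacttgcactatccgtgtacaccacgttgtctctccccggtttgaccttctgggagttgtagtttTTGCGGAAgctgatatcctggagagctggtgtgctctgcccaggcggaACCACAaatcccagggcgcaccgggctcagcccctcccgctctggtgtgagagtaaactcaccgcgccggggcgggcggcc
Bhlhe41, chr6:145865421-145865670, minus strand: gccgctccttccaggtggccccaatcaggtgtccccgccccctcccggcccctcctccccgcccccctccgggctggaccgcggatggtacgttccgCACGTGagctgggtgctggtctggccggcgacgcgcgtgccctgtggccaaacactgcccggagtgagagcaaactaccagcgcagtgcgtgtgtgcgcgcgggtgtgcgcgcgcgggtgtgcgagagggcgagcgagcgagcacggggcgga
Runx1, most upstream start, chr16:92826075-92826324, minus strand: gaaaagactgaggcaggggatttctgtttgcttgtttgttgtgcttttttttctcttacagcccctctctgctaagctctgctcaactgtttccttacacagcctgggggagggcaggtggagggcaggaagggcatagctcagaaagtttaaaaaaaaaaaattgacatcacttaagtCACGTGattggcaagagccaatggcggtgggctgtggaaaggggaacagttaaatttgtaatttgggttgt

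The Cebpb window held no match to any of these letters and 81.6% G or C, and the Cebpa window held the TATA box, from 30 bases before the start, and 66.4% G or C. Over all 32851 mouse promoter windows of the same length, 53.2% of bases were G or C and 12.4% of windows held TATAAA. The Bhlhe41 window held 1 E-box, from 153 bases before the start, and the Runx1 window 1 E-box from 71 bases before the start, where 6.02% of all windows hold one. The Mitf window held 1 C/EBP match, TTGCGGAA (9.56% of all windows hold one), 1 RUNX match (14.0% of windows) and 1 MAF half-site (3.81% of windows). The remaining windows were of other starts: a second Mitf window held a MAF half-site, the third only a TATA match, and the second Runx1 window a PU.1 match (23.3% of windows). A match is a description of letters and not a bound site, and gene counts do not say which start was used.

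The libraries held 34860523 to 51161400 counts. CPM here is counts per 1e6 reads, scaled by TMM, which assumes that most genes keep their level. Across genes, log2 CPM of libraries of the same group correlated at r = 0.992 to 0.995 (Pearson), and of different groups at 0.876 to 0.887. CCL7 replicate 2 stood apart from its group: the chi-square of counts per degree of freedom was 19.7 and 19.0 for its pairs with the other CCL7 libraries, 5.21 for those 2 with each other and 3.11 to 4.07 for pairs of controls. Without that library the same 7 of the 9 factors changed, with log2 changes of 0.29 for Spi1, -1.83 for Cebpa, 2.01 for Cebpb, 2.10 for Cebpd, -0.68 for Maf, 0.61 for Mitf and -0.93 for Bhlhe40. Without it Runx1 was at 0.10 (edgeR adjusted p = 0.0532) and Bhlhe41 at -0.014 (edgeR adjusted p = 0.761), so neither passed and Bhlhe41 changed sign close to 0. The 10 genes with most counts took 8.89% to 9.31% of the control libraries and 11.2% to 11.8% of the CCL7 libraries. The median log2 change over all genes tested was -0.01 with TMM and -0.25 with the deposited totals, so changes of that size depend on the scaling. It also moved the split of calls from 3779 higher and 3919 lower to 2306 higher and 5949 lower. All 7 macrophage markers, led by Lyz2, which encodes lysozyme, were among the genes tested, and their summed level was 10454 to 10999 FPKM in the controls and 19872 to 21222 FPKM with CCL7. Most of that sum was Lyz2, with means of 8793 FPKM in the controls and 17453 FPKM with CCL7. Of the 7 markers, 5 rose and 1 fell (Cd68, from 936 to 675 FPKM), and Mertk did not pass. Summed levels of markers of dendritic cells, stromal cells, chondrocytes, erythroid cells and mast cells stayed below 1 FPKM in every library, and those of lymphocytes were 1.70 to 2.08 FPKM in the controls and 0.993 to 1.07 FPKM with CCL7. Only 4 of 6 chondrocyte, 3 of 5 erythroid, 1 of 5 mast cell and 5 of 9 lymphocyte markers were listed. Those sums therefore cover only part of each set of markers. Neutrophil markers, of which 5 of 7 were listed and none was at 0 in all libraries, summed to 0.094 to 0.204 FPKM in the controls and 1.22 to 1.91 FPKM with CCL7. In bulk RNA, fewer cells of a type and less RNA per cell cannot be told apart.

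**Figure D1:**
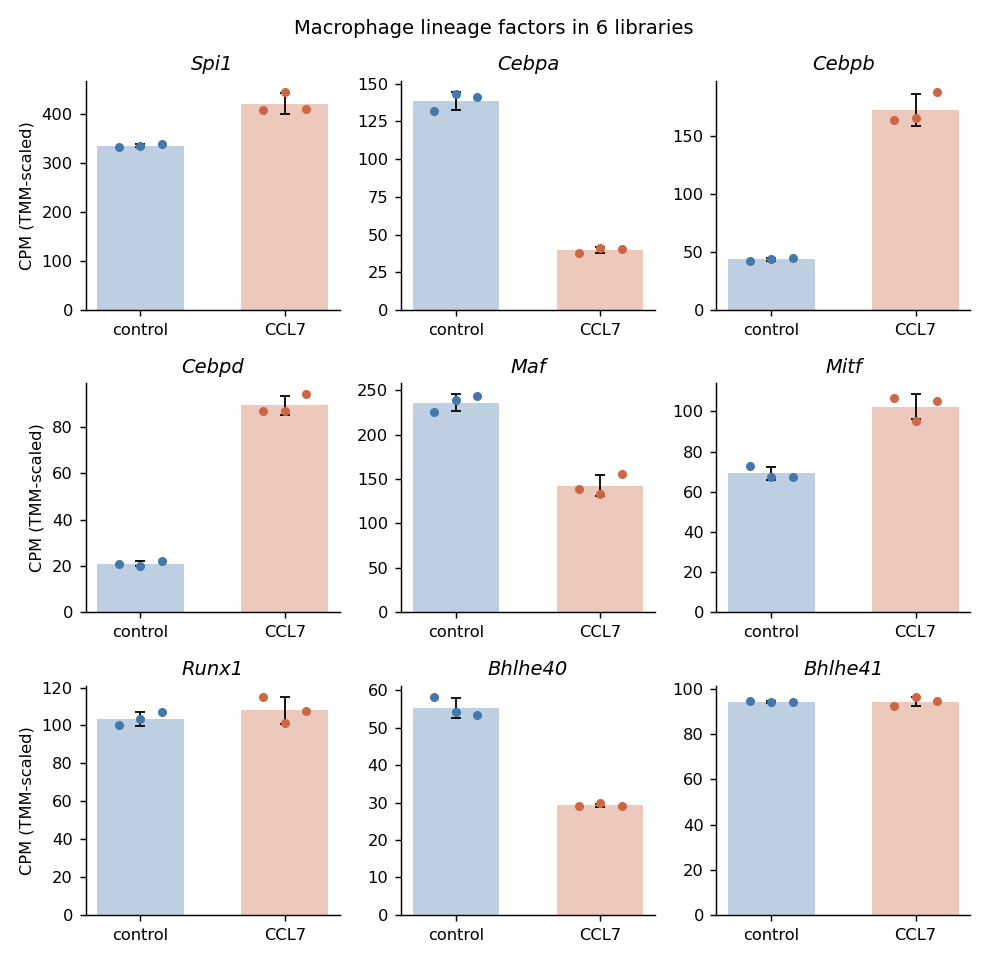
TMM-scaled CPM of the 9 genes in each library (points), with the group mean (bars, from 0) and SD (error bars), for 3 control and 3 CCL7 libraries. Cebpb and Cebpd sit far above their controls and Cebpa far below, while the points of Runx1 and Bhlhe41 overlap.

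Spi1 (ENSMUSG00000002111, chr2:91082390-91115756, plus strand) was the most abundant of the 9 in every library. Its TMM-scaled CPM was 333, 334 and 339 in the control libraries and 408, 445 and 411 with CCL7. The CCL7 libraries were all higher, and the groups did not overlap. The log2 change was 0.33 ± 0.04 (SE, n = 3 per group here and below; edgeR adjusted p = 1.53e-04). Scaled by the deposited totals, the log2 change was 0.09 and the call was lost (edgeR adjusted p = 0.103), so that the rise is one relative to the other genes. Deposited FPKM, which is per length and uses those totals, was 135 ± 1.16 in the controls (mean ± SD) and 144 ± 6.08 with CCL7. In the controls, 97.5% of the genes tested had a lower FPKM.

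Of the close relatives of PU.1, Spib and Spic were below the filter. Spic, a factor known from red-pulp macrophages of the spleen, went from 38 counts in the 3 controls to 575 with CCL7. It rose in the fit without the filter (log2 change 3.92 ± 0.35, edgeR adjusted p = 1.47e-58), and it is named although outside the rule for named genes. That p-value is from a separate fit with its own adjustment and cannot be set beside those of the filtered genes. Despite the rise of Spic, Spi1 held 99.9% of the summed FPKM of Spi1, Spib and Spic in the controls and 99.2% with CCL7. Among 12 tested ETS factors, the wider family of PU.1, 4 rose, 5 fell and 3 did not pass, with a median log2 change of -0.13. The deposited totals gave 3 rises and 8 falls. With TMM 75.0% of them changed, near the 69.1% of all genes tested. Ets2, a factor known to act downstream of MAP kinases, rose by 4.25 ± 0.15 on the log2 scale, from 17.1 ± 2.58 to 327 ± 24.4 CPM, and Elk3 by 1.07 ± 0.07. Gabpa, which encodes the DNA-binding subunit of GABP (-0.64 ± 0.04), and Erf, a repressor (-0.56 ± 0.03), fell most.

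Runx1 (ENSMUSG00000022952, chr16:92601466-92826149, minus strand) had CPM of 100.04, 103 and 107 in the controls and 115, 101 and 107 with CCL7. The groups overlapped, and CCL7 replicate 2 was the lowest of its group. The log2 change was 0.06 ± 0.06 (edgeR adjusted p = 0.385), but -0.18 with the deposited totals (edgeR adjusted p = 0.0226). Cbfb, which encodes the partner subunit that RUNX proteins need for firm DNA binding, fell from 202 ± 3.55 to 121 ± 2.31 CPM (log2 change -0.74 ± 0.02, edgeR adjusted p = 1.71e-07). Runx1 made up 85.4% ± 0.99 of the summed FPKM of Runx1, Runx2 and Runx3 in the controls and 85.2% ± 1.01 with CCL7. Below the filter, Runx2 went from 1194 to 756 counts and Runx3 from 240 to 567 counts, summed over 3 libraries.

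Cebpa (ENSMUSG00000034957, chr7:35119293-35121928, plus strand) had CPM of 132, 143 and 141 in the controls and 37.65, 41.2 and 40.4 with CCL7. All CCL7 libraries lay far below all controls, and the groups did not overlap. On the log2 scale Cebpa changed by -1.80 ± 0.05 (edgeR adjusted p = 9.78e-10), and 434 of the 11143 genes tested fell further.

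Cebpb (ENSMUSG00000056501, chr2:167688915-167690418, plus strand) had CPM of 42.5, 44.0 and 44.65 in the controls and 164, 165 and 188 with CCL7. The lowest CCL7 library was well above the highest control, and CCL7 replicate 3 was the highest. Cebpb rose on the log2 scale by 1.98 ± 0.07 (edgeR adjusted p = 1.30e-09), and 361 genes had a larger one. Cebpd (ENSMUSG00000071637, chr16:15887286-15891031, plus strand) had CPM of 20.9, 20.2 and 22.3 in the controls and 86.9, 87.1 and 94.15 with CCL7. Again the groups did not overlap and CCL7 replicate 3 was the highest. Cebpd rose on the log2 scale by 2.08 ± 0.06 (edgeR adjusted p = 4.91e-10). In GENCODE M21, 312 exon bases of Cebpb (20.7% of its exon length) are shared with Tmem189 on the other strand, and 562 exon bases of Cebpd with Spidr. The strand setting of the counting is not given in the sources used here, so reads from those bases cannot be told apart. Tmem189 rose by 0.34 ± 0.06 and Spidr by 0.17 ± 0.05 on the log2 scale. The summed neutrophil markers, at most 1.91 FPKM, were also higher in every CCL7 library, and their part in the result was not tested.

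Ratios of FPKM within a library do not depend on the scaling between libraries. Cebpb over Cebpa was 0.566, 0.539 and 0.556 in the controls and 7.63, 7.02 and 8.16 with CCL7. Cebpd over Cebpa was 0.111, 0.0992 and 0.112 in the controls and 1.62, 1.49 and 1.64 with CCL7. Both ratios crossed 1 between the groups, whereas Cebpb over Cebpd stayed close, at 5.17 ± 0.24 in the controls and 4.797 ± 0.15 with CCL7. That ratio was still lower in every CCL7 library (4.70, 4.72 and 4.97) than in any control (5.08, 5.43 and 4.98), by a narrow margin. Of the summed FPKM of 5 C/EBP genes, Cebpa held 51.9% ± 0.67 in the controls and 9.15% ± 0.55 with CCL7, Cebpb 28.7% ± 0.34 and 69.4% ± 1.11, and Cebpd 5.57% ± 0.30 and 14.5% ± 0.25. The sum itself was 110 ± 3.61 FPKM in the controls and 152 ± 10.2 FPKM with CCL7.

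Cebpg, a C/EBP protein that lacks a transactivation domain, fell (log2 change -0.27 ± 0.03, edgeR adjusted p = 4.07e-04), and its share of the family went from 13.5% to 6.87%. Ddit3, which encodes CHOP, a C/EBP relative that hinders DNA binding of its partners, rose by 0.83 ± 0.11 on the log2 scale. Trib1, a scaffold protein known to bring C/EBP alpha to the ubiquitin ligase COP1, rose from 5.12 ± 0.37 to 17.1 ± 2.55 CPM (log2 change 1.74 ± 0.14, edgeR adjusted p = 4.98e-07). Trib1 passed the filter only through its CCL7 libraries (0.889 FPKM in the controls and 2.52 with CCL7). Cebpe, a granulocyte factor below the filter, summed to 44 counts over the control libraries and 35 over the CCL7 libraries.

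**Figure D2:**
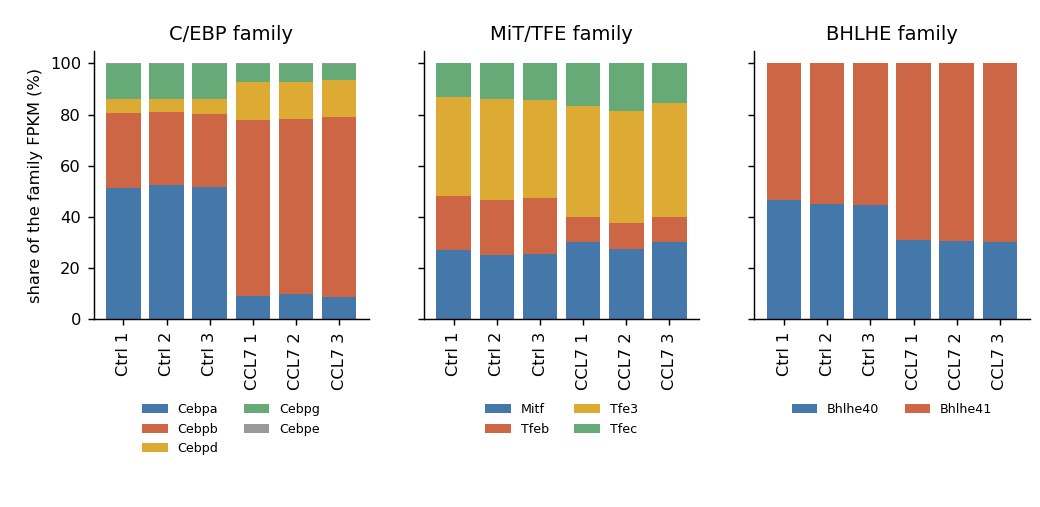
Share (%) of each gene in the summed deposited FPKM of its family, per library, for the C/EBP, MiT/TFE and BHLHE families. The C/EBP bars turn from mostly Cebpa (51.9%) to mostly Cebpb (69.4%), and the BHLHE bars from 45.6% Bhlhe40 to 30.7%.

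Maf (ENSMUSG00000055435, chr8:115682942-115707794, minus strand) had CPM of 225, 238 and 244 in the controls and 138, 133 and 156 with CCL7. All CCL7 libraries lay below all controls. The log2 change was -0.73 ± 0.07 (edgeR adjusted p = 3.10e-06). The small MAF genes, which lack a transactivation domain, rose or did not pass: Maff rose by 2.88 ± 0.22, from 1.13 ± 0.21 CPM, Mafg by 0.97 ± 0.02, and Mafk did not pass (0.10 on the log2 scale, and -0.13 with the deposited totals). Maff passed the filter only through its CCL7 libraries (0.474 FPKM in the controls and 2.94 with CCL7).

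Mitf (ENSMUSG00000035158, chr6:97807052-98021349, plus strand) had CPM of 72.6, 67.5 and 67.1 in the controls and 107, 95.4 and 105 with CCL7. The groups did not overlap, and CCL7 replicate 2 was the lowest of its group. The log2 change was 0.57 ± 0.06 (edgeR adjusted p = 1.06e-05) and 0.33 with the deposited totals (edgeR adjusted p = 7.06e-04). Its relatives of the MiT/TFE family, regulators of lysosome genes, were split: Tfe3 (0.57 ± 0.02) and Tfec (0.69 ± 0.09) rose and Tfeb fell (-0.73 ± 0.03). By share of the summed FPKM of the family, Mitf held 25.9% ± 0.94 in the controls and 29.3% ± 1.66 with CCL7, and Tfeb 21.6% ± 0.49 and 9.91% ± 0.31. Tfe3 was the most abundant of the 4 per length in both groups, at 18.1 ± 0.40 and 22.9 ± 0.38 FPKM.

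Bhlhe40 (ENSMUSG00000030103, chr6:108660629-108666925, plus strand) had CPM of 58.3, 54.1 and 53.4 in the controls and 29.2, 29.8 and 29.0 with CCL7. The CCL7 libraries lay close together and all below the controls. Bhlhe40 had a log2 change of -0.91 ± 0.04 (edgeR adjusted p = 1.34e-07). Bhlhe41 (ENSMUSG00000030256, chr6:145858243-145865558, minus strand) had CPM of 94.6, 94.1 and 94.1 in the controls and 92.2, 96.4 and 94.6 with CCL7. The groups overlapped, and the log2 change was 0.0021 ± 0.019 (edgeR adjusted p = 0.970), but -0.24 with the deposited totals (edgeR adjusted p = 8.25e-04), close to the shift of all genes. Bhlhe41 over Bhlhe40 in FPKM was 1.14, 1.22 and 1.23 in the controls and 2.21, 2.26 and 2.29 with CCL7. That within-library ratio did not overlap between the groups and does not depend on the scaling.

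**Figure D3:**
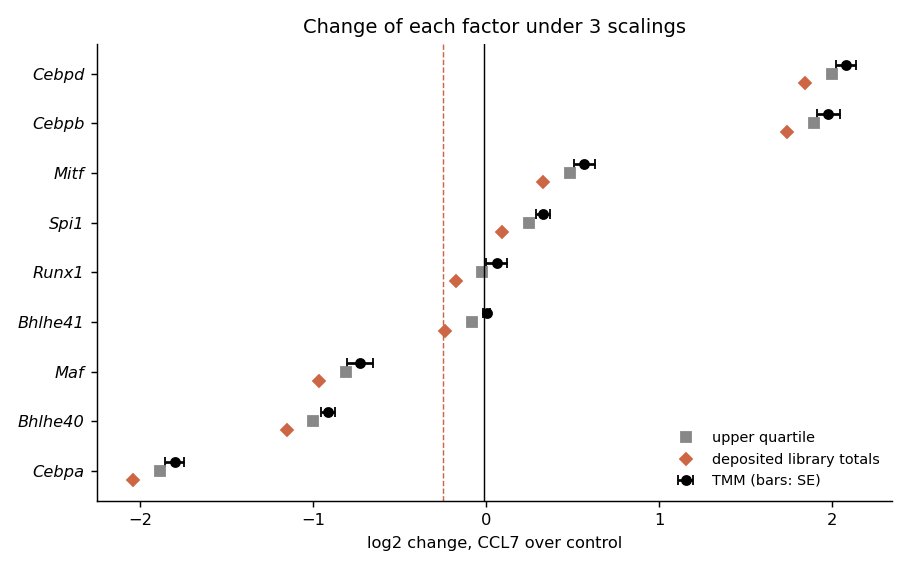
Log2 change (CCL7 over control) of the 9 genes under TMM scaling (circles, bars are SE), upper quartile scaling (squares) and the deposited library totals (diamonds). The solid and dashed vertical lines mark the median of all genes tested with TMM (-0.01) and with the deposited totals (-0.25), and Runx1 and Bhlhe41 change sign between the scalings.

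Per length, the order of levels in the controls was Spi1 (135 FPKM), Cebpa (57.1), Cebpb (31.6), Maf (31.1), Bhlhe41 (15.2), Bhlhe40 (12.8), Mitf (12.1), Runx1 (9.35) and Cebpd (6.12). Cebpb and Maf, and Bhlhe40 and Mitf, overlapped between libraries in that order. With CCL7 the order was Spi1 (144 FPKM), Cebpb (106), Cebpd (21.98), Maf (15.9), Mitf (15.2), Cebpa (13.9), Bhlhe41 (12.9), Runx1 (8.27) and Bhlhe40 (5.74). Here Maf and Mitf, and Mitf and Cebpa, overlapped between libraries. Cebpd moved from the last place to the third. Spi1 over Cebpa, a pair whose balance is known from the choice between monocyte and granulocyte fates, was 2.37 ± 0.09 in the controls and 10.4 ± 0.37 with CCL7.

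The genes most like each factor were named by the smallest Euclidean distance over the 6 libraries, on log2 CPM centred on the control mean. They were Sh3bp4, Ampd3 and Batf2 for Cebpd (distance 0.0642 to 0.158), Gpr85, N4bp1 and Acss2 for Cebpb (0.196 to 0.205), and 4930579G24Rik, Mis18a and Hpse for Cebpa (0.0957 to 0.122). Maf lay nearest to Tcf12, Tedc2 and Spata2l (0.0715 to 0.0904), Bhlhe40 to Plxdc1, Gnrh1 and Carhsp1 (0.0815 to 0.0844), and Mitf to Mgat4a and Rnf31 (0.0646 and 0.0711). Spi1 lay nearest to Slc25a3, St3gal3 and Dnajc11 (0.0271 to 0.0422), Runx1 to Tlr7, Snx27 and Tfcp2 (0.0366 to 0.0570), and Bhlhe41 to Csnk1d, Exoc3 and Ap1m1 (0.0368 to 0.0414). Among the 9 themselves, Cebpb and Cebpd were each other's nearest (0.2151), as were Runx1 and Bhlhe41 (0.2148).

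Partners and antagonists of the 9 factors went both ways. Of 22 tested genes on that list 10 rose, 6 fell and 6 did not pass, or 7 and 10 with the deposited totals, and the median log2 change was 0.11. The share changed with TMM was 72.7%, near the 69.1% of all genes tested. Irf8, the interferon regulatory factor that pairs with PU.1 in macrophage development, was at 0.09 ± 0.03 (edgeR adjusted p = 0.122) and at -0.15 with the deposited totals (edgeR adjusted p = 0.0140). Batf rose by 2.73 ± 0.18 and Batf2 by 2.14 ± 0.06 on the log2 scale; both encode leucine zipper partners of JUN and IRF proteins. The inhibitors of basic helix-loop-helix factors fell: Id3 from 162 ± 1.94 to 10.6 ± 1.47 CPM (log2 change -3.94 ± 0.12, edgeR adjusted p = 9.63e-11) and Id2 by a log2 change of -0.73 ± 0.11, while Id1 (-0.20) did not pass, although with the deposited totals it did (-0.44, edgeR adjusted p = 0.00410). Of 9 tested paralogues of the 9 factors 5 rose, 3 fell and 1 did not pass (median 0.20), or 4 and 3 with the deposited totals. With TMM 88.9% of these changed, beside 69.1% of all genes tested.

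Myeloid genes known to be controlled by PU.1 and C/EBP factors mostly rose. Of 24 tested 20 rose, 3 fell and 1 (Fcgr3, 0.10, or -0.14 with the deposited totals) did not pass, with a median log2 change of 0.90 beside -0.01 for all genes, and 17 rose and 4 fell with the deposited totals. Of all genes tested, 33.9% rose with TMM and 20.7% with the deposited totals. Cybb, which encodes the catalytic chain of the phagocyte oxidase, rose by 2.81 ± 0.05, from 866 ± 36.9 to 6095 ± 261 CPM, and Fcgr1, the high-affinity receptor for IgG, by 2.74 ± 0.06. Csf1r, the receptor for macrophage colony-stimulating factor and a classic PU.1 target, rose by 0.49 ± 0.03 (edgeR adjusted p = 1.80e-06). The falls were the endotoxin receptor gene Tlr4 (-0.38 ± 0.12), Cd68, which encodes a lysosomal glycoprotein (-0.23 ± 0.05), and the scavenger receptor gene Cd36 (-0.14). All 17 tested acute-phase and inflammatory genes known as targets of C/EBP beta or C/EBP delta rose, with a median log2 change of 7.90. Of all genes tested, 33.9% rose. Of the 17, Csf3 (0.014 FPKM in the controls), Nos2 (0.048) and Cxcl1 (0.054) passed the filter only through their CCL7 libraries. So did Ptgs2 (0.115), Hp (0.187), Ptges (0.465) and Cxcl2 (0.517). Their rise was thus fixed in advance, while others, such as Ccl5 (22.6), were above 1 FPKM in the controls. The median is the value of Cxcl1, which rests on 12 control counts. The gene of lipocalin 2, Lcn2, and that of interleukin-1 beta, Il1b, rose most (12.87 ± 0.99 and 11.22 ± 0.16). Both also passed the filter only through their CCL7 libraries (0.022 and 0.109 FPKM in the controls), so their rise too was fixed in advance. The size for Lcn2 rests on 6 control counts and was 13.84 without control replicate 1 and 12.20 without control replicate 2. This list and the myeloid list both hold Cd14.

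Genes linked to MAF in tissue macrophages mostly fell. Of 13 tested 3 rose, 8 fell and 2 (Cd163 and Mertk) did not pass, with a median of -0.52, and 1 rose and 9 fell with the deposited totals. Among all genes tested, 35.2% fell with TMM and 53.4% with the deposited totals. Mrc1, the mannose receptor gene, fell from 253 ± 21.3 to 44.4 ± 9.60 CPM (-2.51 ± 0.20), and Gas6, a ligand that bridges dying cells to receptors of phagocytes, from 565 ± 21.0 to 104 ± 7.19 CPM (-2.45 ± 0.07). Adgre1, which encodes the F4/80 antigen and is also on the myeloid list, rose by 2.40 ± 0.03. Stab1, a scavenger receptor gene, rose by 0.41 ± 0.12, a call lost with the deposited totals (0.18, edgeR adjusted p = 0.0961).

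Of 15 tested genes of osteoclasts and lysosomes linked to MITF and its relatives, 7 rose, 7 fell and Lamp1 did not pass, with a median of -0.03, or 6 and 8 with the deposited totals. The share changed with TMM was 93.3%, beside 69.1% of all genes tested. Acp5, which encodes tartrate-resistant acid phosphatase, rose by 3.61 ± 0.20, from 4.19 ± 0.99 to 50.8 ± 0.99 CPM, and the ion channel gene Trpm2 by 2.02 ± 0.14. Trpm2 passed the filter only through its CCL7 libraries (0.937 FPKM in the controls and 3.24 with CCL7). Itgb3, the integrin beta 3 gene (-2.20 ± 0.08), and Atp6v0d2, a proton pump subunit gene (-1.88 ± 0.06), fell most. Osteoclast genes of the list moved in both directions.

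Clock genes and genes linked to BHLHE40 were split. Of 13 tested 5 rose, 5 fell and 3 (Clock, Arntl and Cdkn1a) did not pass, with a median of -0.18, or 5 and 8 with the deposited totals. With TMM 76.9% of this list changed, near the 69.1% of all genes tested. Hif1a, which encodes the hypoxia-inducible factor 1 alpha (1.75 ± 0.05), and the repressor gene Nfil3 (1.40 ± 0.04) rose most. Nr1d2, which encodes the nuclear receptor REV-ERB beta, fell from 65.1 ± 4.46 to 11.4 ± 1.58 CPM (-2.51 ± 0.13), and Dbp, a clock output factor, from 10.3 ± 0.69 to 2.21 ± 0.31 CPM (-2.23 ± 0.13). Dbp passed the filter only through its control libraries (3.75 FPKM, and 0.679 with CCL7). Il10 is a gene that BHLHE40 is known to repress in T cells and macrophages and that MAF is known to activate. It fell by a log2 change of -0.85 ± 0.15 (edgeR adjusted p = 0.00345). Il10 passed the filter only through its control libraries (below 1 FPKM with CCL7), so its fall was fixed in advance. Its counts summed to 227 over the control libraries and 129 over the CCL7 libraries. This fall is counted both here and among the genes linked to MAF.

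Of 21 factors of other blood lineages 16 were listed, and of these only Ikzf1 and Tal1 passed the filter. Ikzf1, which encodes Ikaros, was at 0.19 ± 0.03 on the log2 scale (edgeR adjusted p = 0.00480) and at -0.04 with the deposited totals (edgeR adjusted p = 0.441), so its direction turned with the scaling. Tal1 did not pass (-0.13), but with the deposited totals it fell (-0.37, edgeR adjusted p = 5.92e-04).

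**Figure D4:**
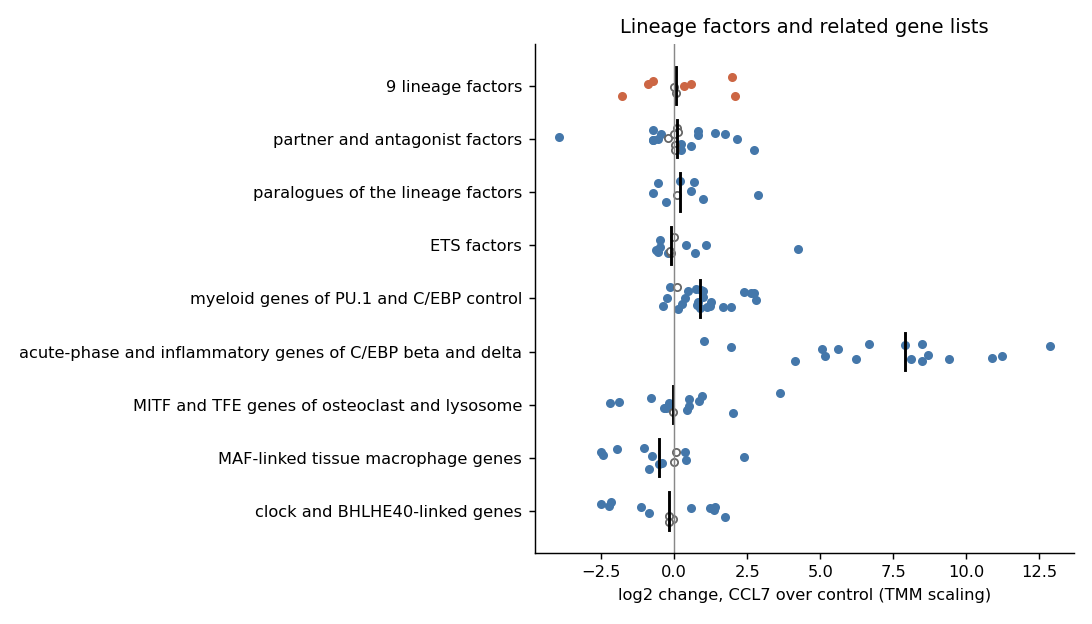
Log2 change (TMM scaling, CCL7 over control) of the 9 lineage factors and of the tested genes of 8 related lists; filled points passed the edgeR threshold, open points did not, and short vertical bars are medians. The 9 factors spread from -1.80 to 2.08, the acute-phase and inflammatory list lies wholly above 0 (median 7.90), and the grey line is the median of all genes tested (-0.01). Part of the acute-phase and inflammatory list passed the filter only through the CCL7 libraries.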

How the data were processed

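Per the file headers, the authors deposited 1 table of 25711 genes with raw counts and FPKM for 6 libraries. Count divided by deposited FPKM and by the library total gave 1 length per gene, and for all 9 factors this was the summed exon length in GENCODE M21 (mouse GRCm38). Coordinates come from that annotation, matched by gene identifier. The submitters' processing notes name the aligner Bowtie 0.12.2 and 2 builds (mm9, mm8) without saying what each was for. Counter and strand setting: not given in the sources used here. Even values were in excess among low counts (66.0% of counts from 1 to 9), so an alternative halved them. The 175 entries without a symbol held at most 0.0029% of a library and were kept under their identifiers.

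Counts were tested with edgeR 4.0.16 (quasi-likelihood, TMM, group only, 2-sided) in R 4.3.3 on the 11143 genes with mean FPKM of at least 1, with Benjamini-Hochberg adjustment over all of them and a threshold of 0.05. Genes below the filter came from a fit without it, with its own adjustment, whose p-values are not comparable in size with the others. A gene below 1 FPKM in 1 group could pass the filter through the other group alone, and the direction of its change was then fixed by the filter. SEs come from the SDs of log2 CPM (prior count 0.5) in each group. The common biological coefficient of variation was 6.81%. Replicate pairs differed by more than sampling noise, pairs with CCL7 replicate 2 most. DESeq2 1.42.0, limma 3.58.1 on log2(FPKM + 1) or log2(FPKM + 0.1), other scalings and filters, the replicate number as a block, and leaving out each library were alternatives.

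The 9 factors and the related lists were chosen with earlier results of these data known, so lists carry counts and medians and no set test. Named genes were the 9, 11 partners (such as Irf8 and Csf1r), and in each list the 2 largest rises and 2 largest falls among genes past the threshold. A few genes that this rule names are not reported here. Other genes, named to account for a family or list, were chosen after their values were seen.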

Additional observations from a re-analysis of the deposited data

How the results depend on the processing

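Of the 9 factors, Cebpa, Cebpb, Cebpd, Maf, Mitf and Bhlhe40 kept direction and side of the threshold in all 16 alternatives. Cebpa ranged from -2.04 to -1.75 on the log2 scale, Cebpb from 1.71 to 2.03, Cebpd from 1.69 to 2.13, Maf from -0.96 to -0.68, Mitf from 0.31 to 0.62 and Bhlhe40 from -1.15 to -0.86. Spi1 kept its direction (0.09 to 0.38) and lost the call with the deposited totals and with limma on log2(FPKM + 1) and log2(FPKM + 0.1), which use those totals (limma adjusted p = 0.0875 and 0.0857).

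With the deposited totals, limma on log2(FPKM + 1) and limma on log2(FPKM + 0.1), the log2 change turned to -0.18, -0.16 and -0.18 for Runx1, -0.24, -0.22 and -0.23 for Bhlhe41, -0.15, -0.14 and -0.15 for Irf8 and -0.044, -0.042 and -0.044 for Ikzf1. With upper quartile scaling it was -0.025 for Runx1 and -0.082 for Bhlhe41, and Ikzf1 lost its call (0.11). Leaving out each library gave -0.014 (without CCL7 replicate 2) to 0.026 (without CCL7 replicate 1) for Bhlhe41, a change of sign around 0 whose cause was not tested. In the same order, those 3 settings gave 2306, 2288 and 2284 genes higher and 5949, 5936 and 5916 lower. FPKM is itself scaled by the deposited totals, so these settings share that scaling.

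The replicate numbers did not pair the libraries: deviations of same-numbered libraries from their group means correlated at -0.08, -0.03 and -0.02, and 0 of 6 libraries correlated best with its own number. With the replicate block 7432 genes were called in place of 7698, and 7 of the 9 factors. Leaving out each library gave 6959 to 8044 genes and 7 of the 9 factors each time. Limma on log2(FPKM + 1), which differs from the reported fit in tool, scaling and pseudocount together, gave smaller sizes: Trib1 0.89, Batf 2.13, Batf2 1.25, Maff 1.41, Ets2 3.66, Lcn2 7.04, Il1b 7.66, Acp5 2.90, Trpm2 1.13 and Dbp -1.50. With log2(FPKM + 0.1), Lcn2 was at 10.12 and Il1b at 10.07. A group of 3 libraries limits the precision.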
